A study of Mus musculus with 12 samples.

Results

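Acetylation and trimethylation of lysine 27 of histone H3 (H3K27ac and H3K27me3) were compared in C2C12 myotubes, using the 2 chromatin immunoprecipitation sequencing (ChIP-seq) libraries whose cells are labelled as myotubes and whose antibody is labelled H3K27ac or H3K27me3, out of 12 libraries of 6 histone marks in 2 cell types. C2C12 is a mouse muscle precursor line, here of strain C3H and at passages 15 to 18. Its proliferating cells, the myoblasts, were taken near confluence in 10% serum, and its myotubes, the fused multinucleated muscle cells, were taken about 5 days after serum was withdrawn and were freed of unfused cells by light trypsin treatment. All cells were unmodified, and no other treatment is named. The 2 marks were read at 22342 promoters of protein-coding genes of the mouse mm9 genome, each a 4 kb window reaching 2 kb either side of 1 transcription start site (TSS), and in 255594 windows of 10 kb. Each mark and cell type had 1 library, so the values below have no replicate error, no p-value is given, and every interval is a 95% Poisson or binomial interval that covers counting error only.

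A lysine carries either an acetyl or a methyl group on its side chain, so the 2 marks exclude each other on a single histone tail, although not on the other tail of the same nucleosome or on the other allele. The acetyltransferases p300 and CBP acetylate H3K27 at active promoters and enhancers. EZH1 and EZH2, the catalytic subunits of Polycomb repressive complex PRC2 that work with EED and SUZ12, trimethylate it at silent developmental genes, and the KDM6 demethylases UTX and JMJD3 remove that methylation. In muscle cells the loss of Polycomb methylation from contractile genes is a known step of differentiation.

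The promoters on which the results below turn differ in sequence as well as in their marks, and the 200 bases upstream of the TSS are printed for 9 of them, 5′ to 3′ on the strand of the gene, with every CpG dinucleotide in capitals. The sequences were read from the mm9 (NCBIM37) genome, and none overlaps an annotated exon. Junb, Tnnc1 and Acta1 represent the acetylated promoters and lie at chr8:87502618-87502817 on the minus strand, chr14:32021298-32021497 on the plus strand and chr8:126418652-126418851 on the minus strand. Hoxb13 and Krt78 represent the methylated promoters, at chr11:96055430-96055629 (plus) and chr15:101784719-101784918 (minus). Cdc42ep1 and Atoh8 carried both marks and lie at chr15:78672877-78673076 (plus) and chr6:72185572-72185771 (minus). Ccna2 and Olfr773 carried neither mark, at chr3:36471073-36471272 and chr10:128624511-128624710, both on the minus strand.
Junb: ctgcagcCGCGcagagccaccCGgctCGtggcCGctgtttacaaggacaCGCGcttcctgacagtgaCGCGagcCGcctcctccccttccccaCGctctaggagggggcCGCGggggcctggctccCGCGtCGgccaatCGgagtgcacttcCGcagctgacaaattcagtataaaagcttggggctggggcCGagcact
Tnnc1: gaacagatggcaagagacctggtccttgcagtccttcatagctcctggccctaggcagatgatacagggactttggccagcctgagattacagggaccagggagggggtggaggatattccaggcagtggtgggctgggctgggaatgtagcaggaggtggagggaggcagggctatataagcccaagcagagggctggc
Acta1: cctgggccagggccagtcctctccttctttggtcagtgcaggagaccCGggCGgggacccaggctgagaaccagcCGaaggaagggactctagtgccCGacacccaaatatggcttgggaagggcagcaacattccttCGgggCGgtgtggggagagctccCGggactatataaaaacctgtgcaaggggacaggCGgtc
Hoxb13: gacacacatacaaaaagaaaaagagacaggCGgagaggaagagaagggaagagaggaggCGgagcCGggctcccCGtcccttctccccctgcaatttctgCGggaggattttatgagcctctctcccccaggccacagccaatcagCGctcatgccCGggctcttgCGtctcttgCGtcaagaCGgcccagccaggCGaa
Krt78: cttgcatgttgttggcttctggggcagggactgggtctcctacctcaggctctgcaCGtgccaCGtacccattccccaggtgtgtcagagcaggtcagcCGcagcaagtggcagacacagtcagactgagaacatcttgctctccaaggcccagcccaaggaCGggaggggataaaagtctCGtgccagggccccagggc
Cdc42ep1: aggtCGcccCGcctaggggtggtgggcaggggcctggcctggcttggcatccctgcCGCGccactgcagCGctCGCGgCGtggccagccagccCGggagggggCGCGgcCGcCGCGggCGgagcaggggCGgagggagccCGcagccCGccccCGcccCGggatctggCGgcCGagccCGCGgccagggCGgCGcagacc
Atoh8: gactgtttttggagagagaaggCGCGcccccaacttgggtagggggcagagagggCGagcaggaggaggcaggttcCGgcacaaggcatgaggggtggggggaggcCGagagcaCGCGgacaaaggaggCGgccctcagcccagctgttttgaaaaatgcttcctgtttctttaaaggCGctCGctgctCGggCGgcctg
Ccna2: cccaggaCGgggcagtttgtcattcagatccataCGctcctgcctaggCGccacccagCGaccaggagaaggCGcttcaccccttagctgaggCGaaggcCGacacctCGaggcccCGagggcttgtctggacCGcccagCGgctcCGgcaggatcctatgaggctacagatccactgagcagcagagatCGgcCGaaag
Olfr773: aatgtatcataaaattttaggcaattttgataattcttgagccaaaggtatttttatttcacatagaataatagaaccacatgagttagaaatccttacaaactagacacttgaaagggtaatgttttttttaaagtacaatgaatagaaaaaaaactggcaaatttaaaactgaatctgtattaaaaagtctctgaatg
The acetylated Junb promoter holds 19 CpG in these 200 bases and the likewise strongly acetylated Tnnc1 promoter holds 0. Cdc42ep1 has the most of the 9, with 26, and the odorant receptor promoter Olfr773 has 0 at a GC content of 26.0%.

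Depth was similar for the 2 marks. The myotube H3K27ac library holds 4725910 aligned reads and the H3K27me3 library 5016019, within a range of 1858771 to 7033100 over the 12 libraries. Values are given as reads in the window and as fold over the mean of the same library across the genome, which came to 7.391 H3K27ac reads and 7.843 H3K27me3 reads per promoter window. A promoter was called for a mark at 3-fold or more, which needed 23 or more H3K27ac reads or 24 or more H3K27me3 reads, and fell into the class acetylated, methylated, both or neither. Of 9 myotube marker promoters, which stand for 8 genes, 9 were acetylated, between 12.7-fold and 118-fold, beside 42.9% of all promoters. Their H3K27me3 was at 1.40-fold or less. In the myoblast library 6 of the 9 were acetylated too, so those 6 do not tell the 2 cell types apart. Of markers of other cells, 0 of 4 endothelial, 1 of 5 blood (Sfpi1, 4.87-fold), 1 of 5 neuronal (Stmn2, 3.25-fold) and 1 of 5 adipocyte promoters (Pparg, 14.5-fold) were acetylated, as were 2 of 6 osteoblast promoters, both annotated starts of Runx2. Among markers of proliferating myoblasts, Myf5 was acetylated and the other 3 of 4 were not.

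At the 3-fold limit acetylation was called at many promoters and trimethylation at few, and the 2 calls rarely met. H3K27ac was called at 9614 of 22342 promoters (43.0%) and H3K27me3 at 1558 (6.97%). The acetylated class held 9589 promoters, or 42.9%, and the methylated class 1533, or 6.86%. Both marks were called at 25 promoters (0.112%), and neither at 11195 (50.1%). H3K27me3 was therefore called at 0.260% of the promoters called for H3K27ac, beside 6.97% of all promoters, and H3K27ac at 1.60% of those called for H3K27me3, beside 43.0% of all. With a limit of 2-fold in place of 3-fold, 2.83% of acetylated promoters were called for H3K27me3, beside 15.3% of all. With 5-fold, 4 promoters carried both marks, or 0.0509% of acetylated promoters, beside 1.01% of all promoters called for H3K27me3. These were Gm10800, Gm10801, Sfi1 and Cdc42ep1, and all but Cdc42ep1 were at 2-fold or more in all 12 libraries.

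**Figure D1:**
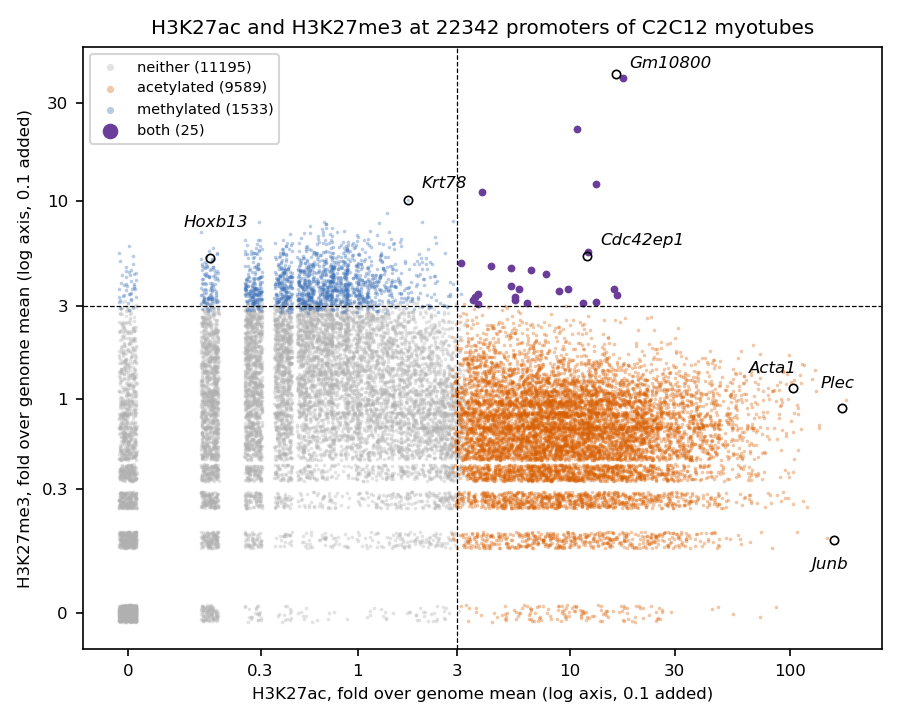
Each point is a promoter, with H3K27ac on the x axis and H3K27me3 on the y axis, both in fold over the genome mean of the library on log axes after 0.1 was added, with a small jitter to separate equal counts; dashed lines mark 3-fold. The 25 promoters with both marks (purple) lie in the sparse upper right, and named promoters such as Plec at 173-fold H3K27ac and Krt78 at 10.1-fold H3K27me3 lie at the ends of the axes.

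The dependence on acetylation was stepped rather than even. Among promoters below 0.5-fold H3K27ac, 8.20% were called for H3K27me3 (538 of 6558), and the share was highest, at 23.7% (698 of 2949), between 0.5-fold and 1-fold. It was 13.0% from 1-fold to 2-fold, 3.52% from 2-fold to 3-fold, and 0.400% from 3-fold to 5-fold (7 of 1752). Among the 1853 promoters at 20-fold H3K27ac or more, 0 were called for H3K27me3. Promoters with the least acetylation were thus less often methylated than promoters with near-average acetylation. In the other direction, 61.2% of promoters with H3K27me3 between 0.5-fold and 1-fold were called for H3K27ac, 7.59% of those between 2-fold and 3-fold and 0.909% of those between 5-fold and 10-fold. Spearman's correlation between the 2 folds was -0.0920 over the 22342 promoters and -0.397 over the 11147 called for either mark. It is a description, since the points share 2 libraries and their base composition. The second value leaves out promoters low in both marks, which by itself makes the correlation more negative, so it does not measure exclusion.

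The range of the 2 marks was unequal. The median acetylated promoter had 9.47-fold H3K27ac and 0.637-fold H3K27me3, and the highest had 173-fold H3K27ac. The median methylated promoter had 3.82-fold H3K27me3 and 0.676-fold H3K27ac, and the highest of its class reached 10.1-fold H3K27me3. Methylated promoters sat close above the limit, and their number was 3120 at 2-fold and 221 at 5-fold.

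The marks also differed in shape around the TSS. Over the acetylated promoters, the mean H3K27ac in bins of 200 bp was highest 300 bp downstream of the TSS, at 35.3-fold, and was 2.79-fold at 8 to 10 kb from it. H3K27me3 over the same promoters was lowest 100 bp downstream, at 0.430-fold, and 1.13-fold at 8 to 10 kb. Methylated promoters had a dip at the TSS rather than a peak: H3K27me3 was 2.97-fold at 100 bp downstream, 4.55-fold at 1500 bp and still 2.90-fold at 8 to 10 kb. Acetylation over the methylated promoters stayed at or under 1.06-fold within 2 kb.

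**Figure D2:**
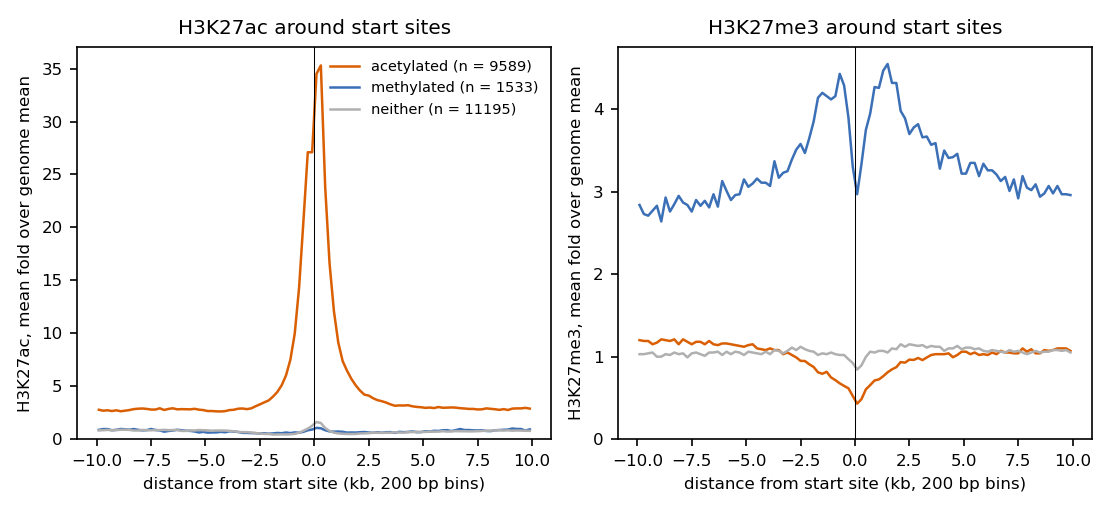
Mean H3K27ac and H3K27me3 in fold over the genome mean (y axes) against distance from the TSS in kb, in bins of 200 bp, for acetylated, methylated and unmarked promoters. H3K27ac forms a narrow summit of 35.3-fold just downstream of acetylated starts, while H3K27me3 forms a broad plateau of up to 4.55-fold around methylated starts, with a dip at the start itself.

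The other marks of the same cells, which were not used to define the classes except that H3K4me3 helped to choose the TSS, followed the division. H3K4me3, a mark of promoters where transcription begins, was called at 96.7% of acetylated and 7.50% of methylated promoters, beside 50.6% of all. Its median was 18.8-fold at acetylated and 1.16-fold at methylated promoters. H3K36me3, which marks the body of transcribed genes, had a median of 4.67-fold in the bodies of acetylated genes, 0.666-fold in those of methylated genes and 0.509-fold in those of genes with neither mark. H3K27me3 itself extended into the body of methylated genes, with a median of 2.98-fold from 2 kb downstream of the TSS, beside 1.05-fold for acetylated genes. A minority of 115 methylated promoters also had H3K4me3 called. That minority had a median H3K27ac of 1.35-fold and a median ratio of observed to expected CpG (CpG o/e, over 1 kb centred on the TSS) of 0.707, beside 0.416 for all methylated promoters.

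Base composition divided the promoters further. The median CpG o/e was 0.762 at acetylated promoters, 0.416 at methylated ones, 0.628 at those with both marks and 0.283 at those with neither. Of the 10584 promoters with a CpG o/e of 0.6 or more, 72.1% were acetylated, 4.76% methylated and 23.0% unmarked. Of the 11758 below 0.6, 16.7% were acetylated, 8.75% methylated and 74.5% unmarked. The correlation of the 2 folds was -0.328 above that limit and 0.266 below it. A canonical E-box, CAGCTG (the same on both strands), lay between 250 bp upstream and 50 bp downstream of the TSS in 14.9% of acetylated, 18.7% of methylated and 15.1% of unmarked promoters, beside 15.3% of all. The TATA motif TATAAA lay on the gene's strand in the 50 bp upstream of the TSS in 1.26% of acetylated, 3.91% of methylated and 4.31% of unmarked promoters, beside 2.97% of all.

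The most acetylated promoters without H3K27me3 were led by Plec and Junb. Plec, which encodes the cytoskeletal linker plectin, had 1276 H3K27ac reads, or 173-fold (163 to 182), and 7 H3K27me3 reads, or 0.892-fold. Junb, a subunit of the AP-1 transcription factor, had 1168 reads (158-fold) and 1 H3K27me3 read (0.127-fold). The ratio of the 2 folds at Junb was 1239, with a counting interval of 222 to 48997, and at Plec it was 193 (93.6 to 482). Sync, encoding the intermediate filament protein syncoilin, had 1011 H3K27ac reads (137-fold), and Tnnc1, encoding slow and cardiac troponin C, had 870 (118-fold). Fos, another AP-1 subunit, had 131-fold H3K27ac, the circadian repressors Bhlhe40 and Per1 had 126-fold and 120-fold, and Tgif1, a homeodomain repressor, and Arhgef2, a guanine nucleotide exchange factor, had 119-fold. Over these promoters H3K27me3 lay between 0.127-fold and 1.40-fold. Tnnc1 is listed under 2 identifiers that share a TSS window with Nisch, so its reads cannot be assigned to a single gene. All of them were also acetylated in the myoblast library, Plec at 213-fold and Tnnc1 at 16.5-fold.

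The most methylated promoters without H3K27ac were led by Krt78, an epithelial keratin gene. It had 79 H3K27me3 reads, or 10.1-fold (7.97 to 12.6), and 13 H3K27ac reads, or 1.76-fold. Fmod, which encodes the extracellular matrix proteoglycan fibromodulin, had 62 reads (7.90-fold) and 5 H3K27ac reads (0.676-fold). Scrt1, a transcription repressor of neurons, had 60 reads (7.65-fold), and it also carried H3K4me3 at 9.50-fold. Ppy, encoding pancreatic polypeptide, had 59 reads (7.52-fold) and Krt1, a keratin of the epidermis, had 57 (7.27-fold). Fam70b (59 reads), Fam163b (57) and BC066135 (57) completed the group with the predicted genes Gm10722 and Gm11168. Those 2 predicted genes lie at the start of chromosome 9, had H3K4me3 of 15.7-fold and 14.2-fold, and were called for both marks in the myoblast library, and whether their reads come from a single locus was not tested.

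Promoters called for both marks were few. Of the 25, 5 (Gm10800, Gm10801, Sfi1, Gm10717 and Gm17379) were at 2-fold or more in all 12 libraries, whatever the antibody, as were 0.0582% of all promoters. Gm10800, the highest, had 120 H3K27ac reads (16.2-fold) and 324 H3K27me3 reads (41.3-fold). In the other 20, at least 1 bin of 500 bp was at 3-fold or more for both marks in 18. A few reads bring a bin to 3-fold, and these promoters were selected for reads of both marks. A shared bin is therefore largely fixed by the selection and does not measure overlap. Some of the 20 share a window, such as Col4a1 and Col4a2, and are not separate regions. The H3K27ac and the H3K27me3 reads were highest in different bins in 19 of the 20, out of 8 bins per window. In 7 the bin with most H3K27ac held no H3K27me3 read. The highest H3K27me3 bin held only 4 to 12 reads, so where the marks lie within a window is poorly resolved at this depth. Since the libraries were made from pools of nuclei, a promoter that carries both marks and a mixture of nuclei or alleles that carry 1 each cannot be told apart, nor can fewer marked nuclei and less of a mark in each.

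Cdc42ep1, which encodes an effector of the GTPase CDC42, had the highest fold of its lesser mark among these 20, with 88 H3K27ac reads (11.9-fold) and 42 H3K27me3 reads (5.35-fold). Its H3K27ac was highest from 0 to 500 bp downstream of the TSS, with 33 reads and no H3K27me3 read. Its H3K27me3 was highest in the next bin, from 500 to 1000 bp, with 8 reads beside 27 H3K27ac reads. Of its 8 bins, 4 were at 3-fold or more for both marks. Dhrs2, encoding a short-chain dehydrogenase, had 48 of its 49 H3K27ac reads downstream of the TSS, while its H3K27me3 was highest from -1500 to -1000 bp. Srpk3, a muscle-specific kinase gene on chromosome X, was the exception, with both marks highest in the same bin (90 H3K27ac reads, 12.2-fold, and 26 H3K27me3 reads, 3.31-fold).

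None of these 20 promoters was called for both marks in the myoblast libraries. There 11 were called for H3K27ac alone, 8 for H3K27me3 alone, 1 for neither and 0 for both. Of all 22342 promoters, 10839 were called in those libraries for H3K27ac alone, 2132 for H3K27me3 alone, 9256 for neither and 115 for both. With so few called for both among all promoters, 0 of 20 is a small difference. Cdc42ep1 had 55.4-fold H3K27ac and 1.09-fold H3K27me3 in myoblasts. Atoh8, a basic helix-loop-helix factor, had 9.63-fold and 0.911-fold in myoblasts, and 4.60-fold and 4.97-fold in myotubes. Gfra1, the receptor for the growth factor GDNF, had 16.9-fold and 0.820-fold in myoblasts, and 5.28-fold and 3.19-fold in myotubes. Col4a1 and Col4a2, the divergent genes of the collagen IV chains of basement membrane, share a TSS window with 9.07-fold H3K27ac and 3.57-fold H3K27me3 in myotubes. In the opposite direction, Myl2, encoding the slow and cardiac regulatory myosin light chain, had 1.03-fold H3K27ac and 6.47-fold H3K27me3 in myoblasts, and 40 reads (5.41-fold) and 35 reads (4.46-fold) in myotubes. Fxyd6, a regulator of the sodium pump, had 0-fold and 5.10-fold in myoblasts, and 7.71-fold and 4.21-fold in myotubes.

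Genes with neither mark were mostly poor in CpG and in every other mark. Of the 11195, 4648 lay below the genome mean in both libraries, 883 had no read of either mark and 558 had no read in any of the 12 libraries. H3K4me3 was called at 1890 of them (16.9%), which had a median of 7.17-fold H3K4me3, 1.89-fold H3K27ac and 0.765-fold H3K27me3 and a median CpG o/e of 0.690. The remaining 9305 had a median H3K27ac of 0.271-fold and a median CpG o/e of 0.227. Large sensory and barrier families lay almost wholly in this class. Of 1087 odorant receptor promoters, 1050 (96.6%, beside 50.1% of all promoters) were unmarked. A further 36 (3.31%, beside 6.86% of all) were methylated, led by Olfr1410 at 54 reads (6.88-fold). The last, Olfr9, was acetylated at 5.41-fold. All 320 vomeronasal receptor promoters were unmarked, 71 of them with no read in any library. Promoters with no read in any library are counted here as unmarked, and whether reads could be placed there was not tested. Among keratin-associated protein genes of hair 42 of 44 were unmarked, and among the antimicrobial defensins 40 of 41, the exception being Defb21 at 3.06-fold H3K27me3.

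The CDK inhibitor locus on chromosome 4 was all but empty of reads. Cdkn2a, which encodes p16 and p19ARF, had 4 reads in all 12 libraries together and Cdkn2b, which encodes p15, had 2, against a median of 301.5 per promoter. Their H3K27me3 count was 0 in both cell types, and each had 2 H3K27ac reads in myotubes. The neighbouring promoters Mtap and Dmrta1 had 499 and 117 reads. A total of 4 reads or fewer was found at 927 promoters (4.15%). The other inhibitors were acetylated or unmarked, with Cdkn1a, encoding the cell cycle inhibitor p21, at 688 reads (93.1-fold), Cdkn1b at 17.2-fold and Cdkn2c at 15.0-fold.

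Genes of the contractile apparatus were acetylated almost throughout. Of 43 sarcomere promoters, 39 (90.7%) were acetylated, beside 42.9% of all promoters, with medians of 35.0-fold H3K27ac and 1.02-fold H3K27me3. Their median CpG o/e was 0.232, well under that of acetylated promoters as a whole. Des, the intermediate filament desmin, had 765 H3K27ac reads (104-fold), Acta1, skeletal actin, had 764 (103-fold), the giant spring protein Ttn had 464 (62.8-fold) and Ckm, muscle creatine kinase, had 94 (12.7-fold). The myosin heavy chain genes differed among themselves: the embryonic Myh3 had 44.9-fold H3K27ac, the adult fast Myh1 31.8-fold, the slow Myh7 5.68-fold, the neonatal Myh8 5.14-fold and the fast Myh4 4.60-fold. Myh2, the fast type IIa chain, had 1.08-fold H3K27ac and 2.04-fold H3K27me3 and was called for neither. The remaining 3 without a call were Mybpc1 (2.98-fold H3K27ac), Myoz1 (2.84-fold) and Myot (1.89-fold).

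Transcription factors of the myogenic programme were acetylated at 9 of 11 promoters (81.8%, beside 42.9% of all promoters). Mef2d had 587 H3K27ac reads (79.4-fold) and Myog, the differentiation factor myogenin, had 429 (58.0-fold), while Myod1, which commits cells to muscle, had 97 (13.1-fold), Myf5 11.2-fold and Myf6 7.44-fold. Pax7, the marker of satellite cells, had 1.08-fold H3K27ac in myotubes and was called for both marks in the myoblast library, at 3.44-fold H3K27ac and 4.65-fold H3K27me3. Pax3, which acts earlier, was called for neither.

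The enzymes that write and erase the 2 marks had acetylated promoters themselves in most cases. Of 24 promoters of the Polycomb and demethylase list 22 were acetylated (91.7%, beside 42.9% of all promoters). Among them were the demethylases Kdm6b at 28.7-fold and Kdm6a at 15.3-fold. The PRC2 subunits Eed, Ezh2 and Suz12 had 18.4-fold, 9.20-fold (68 reads) and 3.92-fold. Of 18 promoters for acetylation enzymes and readers 13 were acetylated (72.2%), among them Ep300 at 25.6-fold, Crebbp at 8.12-fold and the reader Brd2 at 32.3-fold. The 2 lists had a median CpG o/e of 0.827 and 0.651. Of all promoters with a CpG o/e of 0.6 or more, 72.1% were acetylated, so the share of the second list was near that of such promoters. Ezh1, Phc1, Hdac4, Hdac6, Hdac8 and the testis reader Brdt were called for neither mark.

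Housekeeping lists differed mainly in their exceptions. Of 82 ribosomal protein promoters 79 were acetylated (96.3%, beside 42.9% of all promoters), and the 3 others, Rpl10l, Rpl39l and Rps4x, were called for neither. Of 41 proteasome promoters 35 were acetylated (85.4%) and 3 methylated (7.32%, beside 6.86% of all promoters). The 2 neighbouring genes of the interferon-induced proteasome subunits, Psmb8 and Psmb9, were methylated (3.19-fold and, for the pair of identifiers of Psmb9, 4.08-fold and 4.21-fold), and the third such subunit, Psmb10, was acetylated at 8.66-fold. Of 30 replication and mitosis promoters, 16 were acetylated (53.3%, beside 42.9% of all promoters) and 14 unmarked (46.7%, beside 50.1%). Of these 30, 0 were methylated, beside 6.86% of all, which is a small difference for a list of this size. All 30 were acetylated in the myoblast library, where H3K27ac was called at 49.0% of all promoters. Mki67, the proliferation antigen, had 14.4-fold H3K27ac in myoblasts and 0.947-fold in myotubes, Cdk1, the mitotic kinase, 29.6-fold and 2.44-fold, and Top2a, topoisomerase II alpha, 8.94-fold and 1.22-fold. Ccna2, cyclin A2, had 2.16-fold H3K27ac in myotubes (16 reads) with 0 H3K27me3 reads. H3K27me3 over these genes was between 0-fold and 1.27-fold in myotubes.

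**Figure D3:**
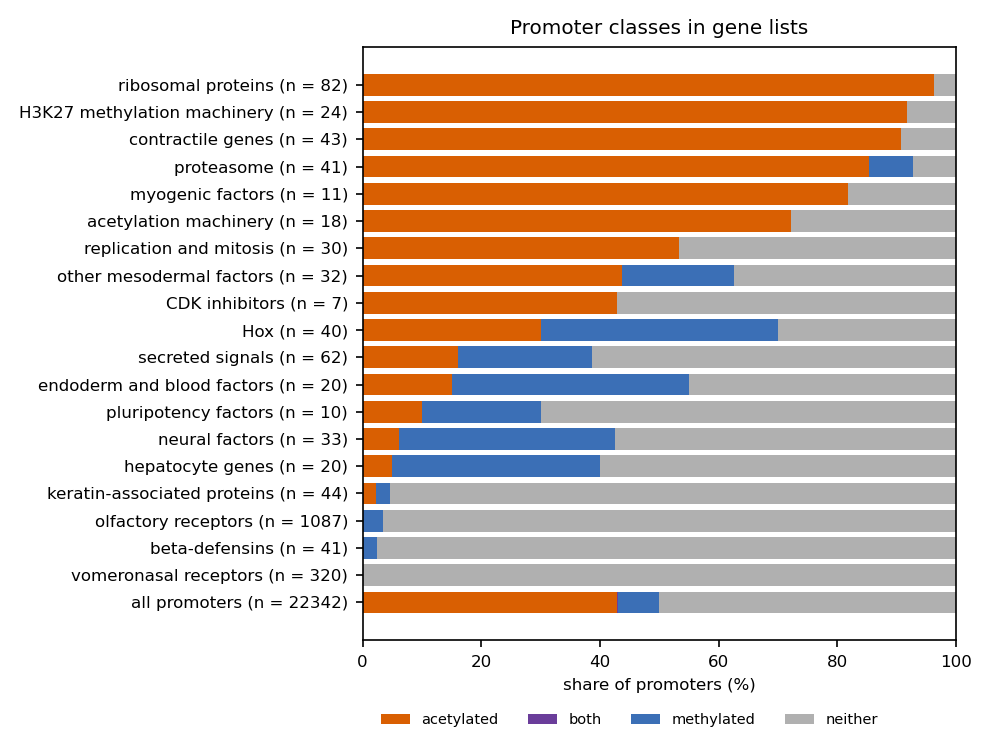
Share of promoters (percent, x axis) in the classes acetylated, methylated, both and neither for each of 19 gene lists and for all promoters (y axis). Ribosomal, Polycomb and sarcomere lists are almost wholly acetylated (39 of 43 sarcomere promoters), methylated members are frequent among neural factors (12 of 33), and the receptor families are almost wholly unmarked.

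Of 33 neural regulators, 12 were methylated (36.4%, beside 6.86% of all promoters), 19 were unmarked and 2 were acetylated, En1 at 6.76-fold and Otx1 at 3.11-fold. The hindbrain and spinal cord factor Olig3 had 48 H3K27me3 reads (6.12-fold) and the forebrain factor Otx2 had 5.10-fold. Their median H3K27me3 was 2.42-fold, just under the limit, and 25 of the 33 were methylated in the myoblast library. Of 20 endoderm and blood regulators 8 were methylated, with the liver factor Hnf4a at 4.46-fold and the pancreatic factor Pdx1 at 4.33-fold, 3 were acetylated, with Gata3 at 9.61-fold, and 9 were unmarked. Of 20 liver genes 7 were methylated, led by Pck1, the gluconeogenic enzyme PEPCK, at 43 reads (5.48-fold), 12 were unmarked, and F2, prothrombin, was acetylated at 9.88-fold.

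Of 32 mesoderm regulators, 14 were acetylated (43.8%, beside 42.9% of all promoters), 6 methylated (18.8%, beside 6.86%) and 12 unmarked. Runx1, a Runt-domain factor, had 744 H3K27ac reads (101-fold). Among T-box factors, Tbx15, Tbx18, Tbx3 and Tbx1 were acetylated, at 25.2-fold, 18.0-fold, 16.6-fold and 3.79-fold, and Tbx4, a hindlimb factor, and Tbx20, a cardiac factor, were methylated, at 3.31-fold and 3.95-fold. Nkx2-5, the cardiac homeodomain factor, had 52 H3K27me3 reads (6.63-fold). Of 62 secreted patterning signals, most were unmarked (38, or 61.3%), 14 were methylated (22.6%, beside 6.86% of all) and 10 acetylated (16.1%, beside 42.9%). Wnt9a had 15.7-fold H3K27ac and Wnt9b had 5.35-fold H3K27me3, Wnt10a and Wnt10b were acetylated at 13.3-fold and 13.9-fold, and Wnt1 and Ihh, the Indian hedgehog ligand, were methylated at 5.74-fold and 5.35-fold. Of 10 pluripotency genes 2 were methylated, Lin28a at 3.31-fold and Esrrb at 3.06-fold, and Klf4, which many cell types use, was acetylated at 502 reads (67.9-fold).

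The 4 Hox clusters encode homeodomain factors that set position along the body axis. Within each cluster, every called promoter carried the same mark. Of 12 Hoxa promoters on chromosome 6, 7 were acetylated, 0 methylated and 5 unmarked. Of 9 Hoxc promoters on chromosome 15, 5 were acetylated, 0 methylated and 4 unmarked. Of 10 Hoxb promoters on chromosome 11, 9 were methylated, 0 acetylated and 1 unmarked. Of 9 Hoxd promoters on chromosome 2, 7 were methylated, 0 acetylated and 2 unmarked. Over all promoters 42.9% were acetylated and 6.86% methylated. Median H3K27ac was 9.07-fold in Hoxa and 9.20-fold in Hoxc, against 0.744-fold in Hoxb and 0.406-fold in Hoxd. Median H3K27me3 was 4.46-fold in Hoxb and 3.95-fold in Hoxd, against 0.765-fold in Hoxa and 0.892-fold in Hoxc.

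Within the clusters, Hoxc6 had 215 H3K27ac reads (29.1-fold) and 2 H3K27me3 reads (0.255-fold), Hoxa7 had 172 (23.3-fold) and 7 (0.892-fold), and Hoxc11 had 125 (16.9-fold) and 1 (0.127-fold). Hoxb3 had 48 H3K27me3 reads (6.12-fold) and 1 H3K27ac read (0.135-fold), Hoxb13 had 41 (5.23-fold) and 1, and Hoxd10 had 41 (5.23-fold) and 6 (0.812-fold). The unmarked Hoxa5 window had 5 H3K27ac reads (0.676-fold) and 5 H3K27me3 reads (0.637-fold) but 87 reads of H3K36me3 (12.9-fold), and Hoxa13, at the end of its cluster, had 2.42-fold H3K27me3. Adjacent Hox genes lie within a few kb of each other, so their windows and marks are not independent. All 12 acetylated Hox promoters were acetylated and all 16 methylated ones were methylated in the myoblast library too. Hoxb1, Hoxd9 and Hoxd11, unmarked in myotubes at 2.68-fold, 2.68-fold and 2.55-fold H3K27me3, were methylated in myoblasts at 7.56-fold, 8.20-fold and 5.83-fold.

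In 10 kb windows the calls of the 2 marks fell in different parts of the genome. Of 255594 windows, 17416 (6.81%) were acetylated, 10350 (4.05%) methylated, 129 (0.0505%) both and 227699 (89.1%) neither. Acetylated windows held 59.5% of the H3K27ac reads and 6.39% of the H3K27me3 reads, while methylated windows held 15.5% of the H3K27me3 reads and 2.17% of the H3K27ac reads. Windows with neither call held 77.9% of the H3K27me3 reads, beside 38.0% of the H3K27ac reads. Most H3K27me3 reads thus lay outside the windows called at 3-fold, and a window without a call is not a window without the mark. H3K27me3 was called in 0.735% of windows called for H3K27ac, beside 4.10% of all. A TSS lay in 35.5% of acetylated windows and 12.8% of methylated ones, beside 7.88% of all. Acetylated windows without a TSS had median H3K4me1, a mark of enhancers, of 5.26-fold and H3K4me3 of 2.09-fold, and those with a TSS had 3.22-fold and 9.08-fold. Over all windows Spearman's correlation was 0.460, and over the 27895 called for either mark it was -0.689, both as descriptions. The second leaves out windows low in both marks, which by itself makes the correlation more negative, so it does not measure exclusion.

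Methylated windows joined into longer domains than acetylated ones. Contiguous called windows formed 4824 H3K27me3 domains, 108 of 100 kb or more, and 10461 H3K27ac domains, 41 of 100 kb or more. The longest H3K27me3 domain, 450 kb at chr11:118390001-118840000, held the neuronal splicing factor gene Rbfox3 at a mean of 4.38-fold H3K27me3 and 0.570-fold H3K27ac. A domain of 410 kb at chr8:123210001-123620000 (4.60-fold) held Irf8 and Foxf1a, transcription factors of blood cells and of visceral mesoderm. A domain of 290 kb at chr15:101510001-101800000 (5.05-fold H3K27me3, 0.539-fold H3K27ac) held the start sites of 14 keratin genes or loci, from Krt6b to Krt78 in order along the chromosome. The longest H3K27ac domain, 250 kb at chr19:47290001-47540000, held Sh3pxd2a, encoding the podosome scaffold TKS5, at 13.6-fold H3K27ac and 1.27-fold H3K27me3. The domain of 190 kb around Myh9, the non-muscle myosin IIA heavy chain, at chr15:77590001-77780000 reached 24.3-fold.

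Single windows at the extremes were led by acetylation. The most acetylated, chr19:5840001-5850000, held 3513 H3K27ac reads (190-fold) and contains the nuclear non-coding RNA gene Neat1. It was followed by chr8:86720001-86730000 (136-fold), in which no gene lies, by the window of Plec (134-fold) and by that of Arhgef2 (115-fold). Further down came Jph2, the junctophilin that couples the membrane and the sarcoplasmic reticulum, at 94.8-fold, and the nuclear lamina gene Lmna at 81.6-fold. The highest H3K27me3 window, chr2:98500001-98510000, was high in every library (29.5-fold H3K27me3, 12.5-fold H3K27ac, 10.2-fold in the lowest of 12). Among windows outside such loci, that of Krt78 led with 9.59-fold H3K27me3 and 1.30-fold H3K27ac, and those of the postsynaptic scaffold gene Dlgap4 (8.77-fold), of Kcnj4, an inward rectifier potassium channel (8.06-fold), and of the lymphoid factor Ikzf3 (8.01-fold) were among the next.

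Chromosome X had less acetylation than the autosomes, while its trimethylation was near the genome mean over the whole chromosome. The median H3K27me3 was 1.40-fold at X promoters and 0.765-fold at autosomal ones, although X promoters were not called methylated more often. The H3K27ac density of X was 0.275-fold of the genome mean (82443 reads) and that of H3K27me3 was 1.01-fold (322359 reads). Of 932 X promoters, 21.4% were acetylated (beside 42.9% of all promoters), 6.01% methylated (beside 6.86%) and 72.1% unmarked (beside 50.1%). At X promoters with H3K4me3 called (319), the median was 4.33-fold H3K27ac and 1.53-fold H3K27me3, against 8.12-fold and 0.637-fold at the 10980 such promoters on autosomes. The other 10 libraries had 0.216-fold to 0.530-fold on X, except the myoblast H3K27me3 library at 0.864-fold.

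The same 2 marks in myoblasts were the closest pair to compare. That comparison sets single libraries side by side. The deposited myoblast peak lists of these 2 marks carry names exchanged against their samples and were not used. The myoblast H3K27ac library is the shallowest of the 12, so that 9 reads sufficed for a call there. H3K27ac was called at 49.0% of myoblast promoters and H3K27me3 at 10.1%. Most calls were shared: of 10839 promoters acetylated in myoblasts 9115 were acetylated in myotubes, and of 2132 methylated in myoblasts 1239 were methylated in myotubes. Promoters seldom passed from one mark to the other. In myotubes 54 of the 2132 were acetylated, 8 carried both marks and 831 neither, and of the 10839 acetylated in myoblasts 18 were methylated, 11 carried both and 1695 neither. Of 9256 promoters unmarked in myoblasts, 382 were acetylated and 240 methylated in myotubes. Both marks were called in myoblasts at 115 promoters, of which 38 were acetylated, 36 methylated and 36 unmarked in myotubes, and 5 carried both.

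The 54 promoters methylated in myoblasts and acetylated in myotubes, of 22342 in all, included 4 of the 43 on the sarcomere list (Acta1, Actn2, Myh3 and Myh7). Of that list 21 were acetylated in both cell types, and 14 were unmarked in myoblasts and acetylated in myotubes. The median H3K27ac of the 54 was 1.38-fold in myoblasts and 6.76-fold in myotubes, and their median H3K27me3 was 3.74-fold and 1.66-fold. Acta1 had 8 H3K27ac reads (2.75-fold) and 45 H3K27me3 reads (4.10-fold) in myoblasts, and 764 (103-fold) and 9 (1.15-fold) in myotubes. Myh3 had 1.03-fold H3K27ac and 3.83-fold H3K27me3 in myoblasts, and 44.9-fold and 1.40-fold in myotubes. Fgfr3, a fibroblast growth factor receptor, had 5.65-fold H3K27me3 and 2.41-fold H3K27ac in myoblasts, and 1.53-fold and 43.7-fold in myotubes. Smpx, Unc45b, Myh7b and Ckmt2 of muscle and Ache and Colq of the neuromuscular junction were in the same group.

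**Figure D4:**
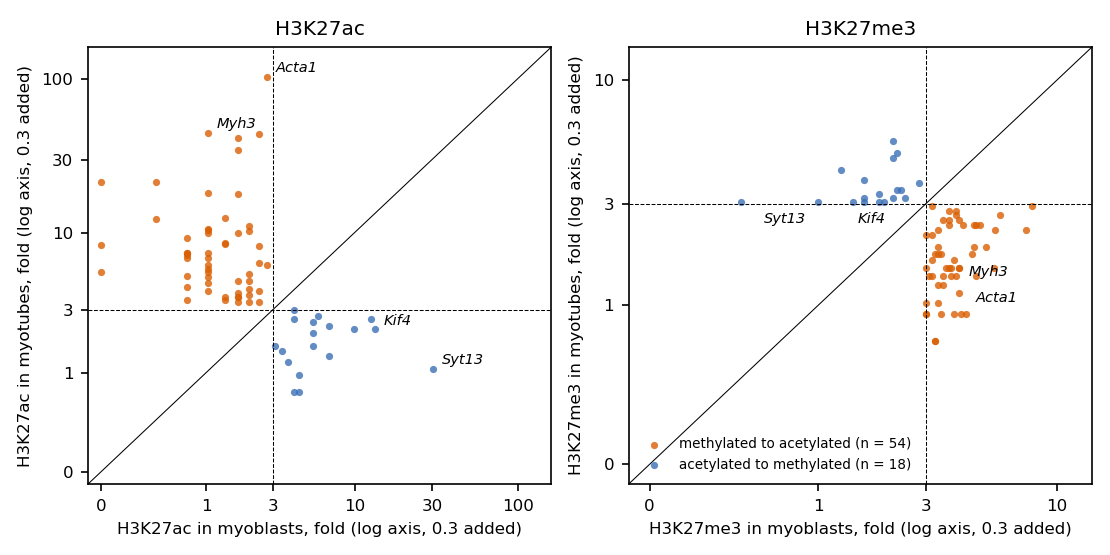
Fold over the genome mean in myoblasts (x axis) and myotubes (y axis) of H3K27ac (left) and H3K27me3 (right) for the 54 promoters methylated in myoblasts and acetylated in myotubes and the 18 with the opposite order, on log axes after 0.3 was added, with dashed lines at 3-fold. Acta1 lies highest for H3K27ac, at 103-fold in myotubes, while most promoters of either group lie within a few fold of the limits.

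The 18 promoters with the opposite order were closer to the limits. Their median H3K27ac was 5.50-fold in myoblasts and 1.83-fold in myotubes, and their median H3K27me3 was 1.96-fold and 3.25-fold. Optc and Prelp, the genes of the matrix proteins opticin and prolargin, lie next to Fmod on chromosome 1. Optc had 2.19-fold H3K27me3 in myoblasts and 5.61-fold in myotubes, Prelp 2.28-fold and 4.97-fold, and Fmod, unlike these, was already methylated in myoblasts at 3.37-fold. Syt13, a synaptotagmin, had 89 H3K27ac reads (30.6-fold) in myoblasts and 8 (1.08-fold) in myotubes, with 11 and 24 H3K27me3 reads. Kif4, a mitotic kinesin gene on chromosome X, had 13.4-fold and 2.16-fold H3K27ac, with 1.46-fold and 3.06-fold H3K27me3. Its 24 H3K27me3 reads in myotubes are the fewest that allow a call. Kif4 shares its TSS window with Pdzd11, so its reads cannot be assigned to a single gene.

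The largest ratios between the cell types were those of acetylation at muscle genes, among promoters called in 1 cell type with at least 30 reads in both together. Csrp3, the muscle LIM protein, had 261 H3K27ac reads in myotubes and 0 in myoblasts, at least 34.2-fold higher against a floor of 3 reads, with a lower counting bound of 27.6. The muscle ubiquitin ligase Trim63 (194 and 0 reads), the Z-disc protein Actn2 (159 and 0) and Lrrc2 (139 and 0) were at least 25.4-fold, 20.8-fold and 18.2-fold higher against that floor, with lower counting bounds of 20.5, 16.8 and 14.6. Myh1 had 235 and 1 reads, a ratio of 92.4 (16.4 to 3667). Msc, a repressor of myogenic factors, had 5 H3K27ac reads in myotubes and 85 in myoblasts, a ratio of 0.0231 (0.00733 to 0.0561). Pbk, a mitotic kinase, had 3 and 43 reads, a ratio of 0.0274 (0.00545 to 0.0857), with Gm9947 (6 and 86), D2Ertd750e (3 and 41) and Syt13 (8 and 89) next.

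Ratios of trimethylation were smaller upward than downward. Atoh8 had 39 H3K27me3 reads in myotubes and 10 in myoblasts, a ratio of 5.46 (2.68 to 12.3), and Cdc42ep1 had 42 and 12, a ratio of 4.90 (2.53 to 10.2). Gfra1 (25 and 9 reads), the keratin gene Krt79 (29 and 12) and Ddx26b (33 and 14) followed. Mafa, a Maf-family transcription factor, had 3 H3K27me3 reads in myotubes and 59 in myoblasts, a ratio of 0.0712 (0.0143 to 0.218), with H3K27ac at 5.16-fold in myoblasts and 26.9-fold in myotubes. Hrk, a pro-apoptotic BH3-only gene, had 11 and 96 reads, a ratio of 0.160, and Igf2bp1, an RNA-binding protein gene of fetal tissues, had 13 and 92, a ratio of 0.198 (0.101 to 0.355). Frmpd1 had 3 and 38 reads and Rtn4rl2, a Nogo receptor relative, had 4 and 36.

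The peaks deposited for the same 2 libraries overlapped little, but they rest on the same libraries and are not independent of the counts above. That each mark was high in its own peaks follows from how peaks are chosen. The peaks held 51.3% of the H3K27ac reads and 1.72% of the H3K27me3 reads. The H3K27ac list holds 47019 peaks over 47.6 Mb, in which H3K27ac was 27.5-fold and H3K27me3 0.846-fold, and the H3K27me3 list holds 13623 peaks over 5.03 Mb, in which H3K27me3 was 8.77-fold and H3K27ac 0.550-fold. Only 21 peaks of either list overlapped the other list by at least 1 base. An H3K27ac peak lay in the window of 94.4% of acetylated promoters, while an H3K27me3 peak lay in that of 28.6% of methylated promoters.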

How the data were processed

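ChIP-seq was deposited for 12 libraries, and the samples were grouped by the labels for cell type and antibody. The authors deposited, per library, 1 line per aligned read of 34 bases in mm9 coordinates, each with a count of 1, and a list of peaks with a score per peak; the labels give 15 PCR cycles and fragments of about 250 bp including adaptors. For the myoblast libraries the study's methods state unique alignment and MACS peak calling; for the myotube libraries the aligner and settings are not given in the sources used here. No input or total H3 library was used here. Read counts were not normalized by the authors.

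Reads on chromosomes 1 to 19 and X were extended to 150 bp and their midpoints counted with Python 3.11.15, numpy 2.4.6, pandas 2.3.3 and scipy 1.17.1 (plots with matplotlib 3.10.9), and divided by the library's mean over 2555806925 bases other than N. That scaling fixes each library's mean at 1, so levels are relative and a change of the whole mark between libraries would not be seen. Of 22350 protein-coding genes of the annotation (45993 starts), 22342 were used, each at the TSS with most H3K4me3 within 1 kb. Windows of 10 kb needed 5 kb of bases other than N. Counting was tested on simulated data. The exact Poisson and binomial 95% intervals and the floor of 3 reads cover counting error only; 0.806% of H3K27ac and 0.461% of H3K27me3 reads repeated a position and strand, and reads without molecular identifiers are not independent molecules.

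Genes were named by rank (the 10 highest of each mark without the other, the highest with both, the 5 largest ratios between cell types per mark and direction) and as members or extremes of gene lists; the members and lists were chosen with earlier results of these data known. The symbols Sox1 and Foxf1 were not found, and Sfpi1 stood for Spi1. Other windows, limits, TSS choices, extensions, repeat removal, thinning, backgrounds and the deposited peaks were tried. The deposited myoblast H3K27ac and H3K27me3 peak lists are each attached to the sample of the other mark by name, and the myoblast peak lists were not used here; the myoblast read files carry the names of their samples and had promoter Spearman correlations of 0.901 (H3K27ac) and 0.727 (H3K27me3) with the myotube library of the same mark. The read files are named as merged, what was merged is not stated, and each was counted as 1 library.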

Additional observations from a re-analysis of the deposited data

How the results depend on the processing

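Of 202 recomputed values, 166 moved by less than 1.5 times and 36 moved further. None changed sign, but only the correlations could, since counts, percentages and CpG ratios are never negative. Limits and peak lists account for most of the moves, by their construction, and for the rest the cause was not tested. Against 25 promoters with both marks, there were 38 with 1 kb either side of the TSS, 308 at a limit of 2-fold, 4 at 5-fold, 419 with a Poisson lower bound above the mean, 396 with the background taken outside peaks and 0 with peaks of score 100 or more. Against 1533 methylated promoters, there were 3120 at 2-fold, 221 at 5-fold, 3365 with the Poisson bound, 585 by deposited peaks and 33 by peaks of score 100 or more. Against 17416 acetylated windows, there were 10663 at 5-fold, 26504 with the Poisson bound, 39357 with the background outside peaks and 28581 by peaks. Against 10350 methylated windows, there were 27220 at 2-fold, 860 at 5-fold, 44453 with the Poisson bound and 611 by peaks of score 100 or more. Against 129 windows with both marks, there were 1116 at 2-fold, 11 at 5-fold, 4282 with the Poisson bound, 1070 with the background outside peaks, 428 by peaks and 19 by peaks of score 100 or more. From myoblasts to myotubes, 18 promoters that were acetylated and then methylated became 67 at 2-fold and 1 at 5-fold, 54 with the opposite order became 83 and 9, 240 that were unmarked and then methylated became 373, 52 and, with libraries thinned to equal depth, 472, and 1695 that were acetylated and then unmarked became 1095 at 2-fold. Spearman's correlation over promoters, -0.0920, was -0.160 with 1 kb either side. After seeing the data, promoters that share a window with a neighbour were left out, which gave 16 promoters with both marks and a correlation of -0.0554, and so were regions at 2-fold or more in all 12 libraries, which moved no other value by 1.5 times. No paired analysis was possible because each mark and cell type has 1 library, and for the same reason no replicate could be left out. A call at 3-fold rests on 23 or 24 reads, so promoters near the limit can fall on either side by counting error alone.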
